A study of Mus musculus with 2 samples.

Results

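The Id inhibitors *Id2* and *Id3* and the E protein genes *Tcf3*, *Tcf4* and *Tcf12* were located by gene symbol, and all 5 were found in both deposited expression tables, among 14732 symbols listed in at least 1 of the 2 tables. The cells were CD8+ T cells of OT-I transgenic C57BL/6 mice aged 6 to 8 weeks, taken from lymph nodes and spleen, whose T cell receptor recognizes the ovalbumin peptide SIINFEKL. After 24 h with peptide (2.5 ng/mL) and IL-2 (10 U/mL), control cells received the empty retroviral vector RVKM and Eomes-overexpressing cells, called Eomes cells here, received the same vector carrying *Eomes*. Both vectors encode human CD2 behind an IRES, which marks transduced cells for sorting but fixes neither their number of vector copies nor the amount of Eomes per cell. The hCD2+ cells were sorted 48 h later and restimulated for 3 days at 40000 cells per well with peptide and IL-2 at unchanged doses. With 1 library for each condition there is no replicate and no test of the conditions, and how many mice contributed is not given in the sources used here.

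Helix-loop-helix transcription factors bind DNA as dimers through a basic region next to the dimerization domain. E proteins, of which *Tcf3* encodes E2A, *Tcf12* encodes HEB and *Tcf4* encodes E2-2, recognize the E-box (CANNTG). Id proteins keep the dimerization domain but lack the basic region, so an E protein bound to an Id protein cannot occupy an E-box. In CD8+ T cells responding to infection, *Id2* is known for supporting effector cells and *Id3* for marking precursors of long-lived memory cells.

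E-boxes are the sites that E proteins recognize and T-box sites those of Eomes, so the 250 bases before each start site in RefSeq (GRCm38.p6) were searched for CANNTG and for the T-box core letters GGTGTGA on both strands. Windows were found for 4 of the 5 members, all but *Tcf4*. The stretches upstream of *Id2* and *Tcf3*, the most abundant inhibitor and the most abundant E protein gene, are shown 5′ to 3′ on the strand of the gene, with the E-box in capitals. They leave out window bases that are exonic in any GENCODE vM21 transcript, 161 for *Id2* and 12 for *Tcf3*, and lie at chr12:25096254-25096342 (minus strand) and chr10:80433648-80433885 (minus strand). The *Id2* stretch is intronic in a longer *Id2* transcript, and the *Tcf3* stretch is upstream of the gene.
Id2: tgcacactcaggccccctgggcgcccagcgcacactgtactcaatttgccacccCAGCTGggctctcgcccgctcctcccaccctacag
Tcf3: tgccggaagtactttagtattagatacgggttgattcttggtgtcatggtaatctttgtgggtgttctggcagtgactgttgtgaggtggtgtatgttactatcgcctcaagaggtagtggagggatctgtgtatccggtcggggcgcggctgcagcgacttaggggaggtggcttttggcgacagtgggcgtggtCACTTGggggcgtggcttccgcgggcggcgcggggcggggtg

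The *Id2* window held a single E-box, CAGCTG, which begins 196 bases before the start site, and the *Tcf3* window also held 1 (CACTTG, from 54 bases before the start). The *Id3* window, at chr4:136143572-136143821 (plus strand), held none, and all of it is exonic in a longer *Id3* transcript. Of the 3 windows of *Tcf12* the first held CAGCTG and the second held CAAGTG. At least 1 CANNTG occurs in 66.2% and CAGCTG, which is 1 form of CANNTG, in 13.0% of 32851 RefSeq windows of the same length. GGTGTGA was present in no member's window and occurs in 3.33% of all windows. These letter matches describe the windows only.

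Expression is given as RPKM, the read number divided by transcript length and by library depth, which can be compared between genes. *Eomes* itself was at an RPKM of 2.47 in control cells and 129.6 in Eomes cells, with vector and endogenous transcripts not told apart. Depth was not stated, but the steps between low RPKM values placed it near 19150000 reads for control cells and 19050000 reads for Eomes cells. Read numbers approximated from these depths give 95% intervals, exact unless stated otherwise, that cover counting error only and compare 2 libraries rather than 2 conditions. A gene counted as expressed where either library reached an RPKM of 1 (9925 symbols), and 4 of the 5 members passed. Of these 4 members 2 were past 1.5-fold, *Id2* upward and *Id3* downward, beside 7.60% of all expressed genes. The share over expressed genes was 2.44% for differences of over 1.5-fold upward and 5.16% downward, and their median log2 ratio (Eomes-overexpressing over control) was -0.0037.

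The *Id* genes differed in opposite directions. *Id2* lies on chromosome 12 of mm10 from 25093799 to 25097140 on the minus strand. Its RPKM was 56.3 in control cells and 123.6 in Eomes cells, a 2.20-fold higher level. The log2 ratio of 1.13 rests on about 1369 and 2991 reads (interval 1.04 to 1.23). This interval lies wholly above the 1.5-fold threshold, which is 0.58 on the log2 scale. By log2 ratio, *Id2* held position 48 of the expressed genes, counted from the highest. Among the 3372 genes whose mean RPKM was 20 to 200, where *Id2* belongs, 0.712% were more than 1.5-fold higher.

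*Id3* lies on chromosome 4 from 136143497 to 136145755 on the plus strand. Its RPKM was 4.40 in control cells and 1.83 in Eomes cells, 2.40-fold lower, so the scarcer inhibitor was the one that was lower in Eomes cells. About 108 and 45 reads stand behind the log2 ratio of -1.27 (interval -1.79 to -0.74). The interval is wider than that of *Id2* but also lies beyond 1.5-fold. *Id3* was at position 9823 of 9925. Lower values were more frequent at its level, where 11.4% of the 2414 genes whose mean RPKM was 1 to 5 were more than 1.5-fold lower. A pseudocount of 1 on both values brings the log2 ratio of *Id3* to -0.93.

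**Figure D1:**
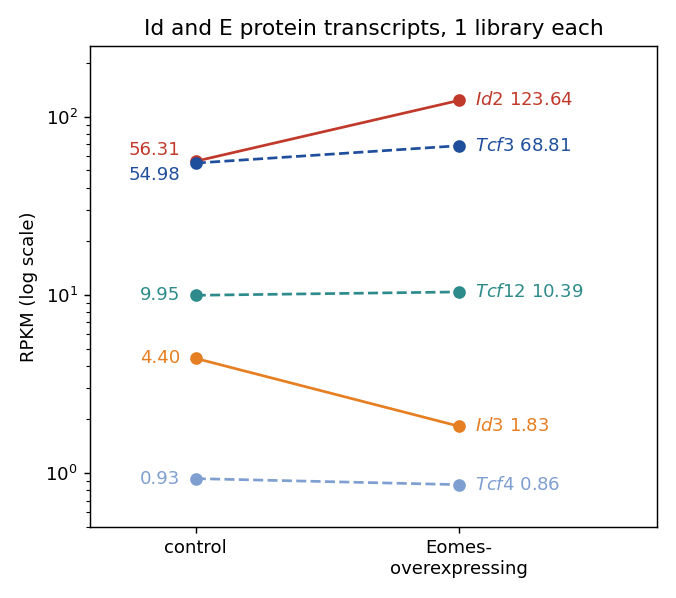
RPKM (log scale) of each member in the control and the Eomes-overexpressing library, 1 point per library, with solid lines for Id genes and dashed lines for E protein genes. *Id2* and *Tcf3* start together at 56.3 and 55.0, after which *Id2* lies above *Tcf3*, while *Id3* moves down from 4.40 to 1.83 and *Tcf12* and *Tcf4* stay nearly level.

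None of the 3 E protein genes passed 1.5-fold. *Tcf3*, on chromosome 10 from 80409514 to 80433647 on the minus strand, was the dominant E protein transcript, at an RPKM of 55.0 in control cells and 68.8 in Eomes cells. Its log2 ratio of 0.32 (interval 0.26 to 0.39, about 3106 and 3867 reads) lies above 0 but stays under 1.5-fold. *Tcf3* was at position 1058 of the expressed genes, so it was higher than most but far from the top. The table holds 1 value per gene symbol, so the splice forms E12 and E47 of *Tcf3*, which differ in the DNA-binding region, are not separated.

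*Tcf12*, on chromosome 9 from 71842688 to 72111871 on the minus strand, had an RPKM of 9.95 in control cells and 10.4 in Eomes cells. The log2 ratio was 0.06, with an interval of -0.05 to 0.18 that spans 0, and a difference of 1.5-fold lies outside it. After centring by GC content the log2 ratio of *Tcf12* turned to -0.05, so its direction depends on that setting. *Tcf4*, known for its role in plasmacytoid dendritic cells, was under the minimum in both libraries, at an RPKM of 0.93 and 0.86. About 153 and 141 reads give a log2 ratio of -0.11 (interval -0.45 to 0.23). A 1.5-fold difference lies outside this interval too.

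**Figure D2:**
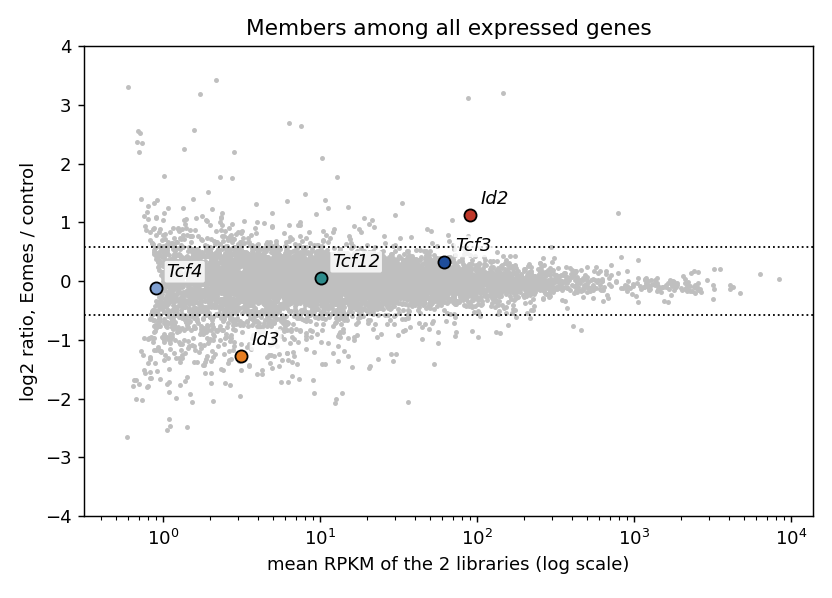
Log2 ratio of Eomes-overexpressing over control against the mean RPKM of the 2 libraries (log scale) for all expressed genes (grey points) and the 5 members (coloured), with dotted lines at 1.5-fold and 10 genes outside the vertical axis. *Id2* (1.13) lies above the upper line, as do 24 of the 3372 genes with a mean RPKM of 20 to 200, itself included. *Id3* (-1.27) lies below the lower line in a wider part of the cloud, and the 3 E protein genes lie between the lines.

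Ordered by level, control cells had *Id2* and *Tcf3* at the top, followed by *Tcf12*, *Id3* and *Tcf4*. The counting intervals of *Id2* (53.4 to 59.4) and *Tcf3* (53.1 to 56.9) overlapped in control cells. Such intervals leave out error in transcript length, which matters between genes, so overlap or separation here speaks of counting error only. In Eomes cells the order of the symbols was unchanged, but the interval of *Id2* (119 to 128) no longer reached that of *Tcf3* (66.7 to 71.0). The RPKM intervals of *Tcf12*, *Id3* and *Tcf4* did not overlap in control cells, at 9.39 to 10.5, 3.61 to 5.31 and 0.788 to 1.09. In Eomes cells *Id3* (1.33 to 2.45) came closer to *Tcf4* (0.724 to 1.01) without overlap.

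The balance between inhibitors and E proteins was then described by adding RPKM values. The sum of *Id2* and *Id3* was 60.7 in control cells and 125.5 in Eomes cells, which is a log2 ratio of 1.05 (0.96 to 1.14, by error propagation). The sum over the E protein genes was 65.9 and 80.1, a log2 ratio of 0.28 (0.22 to 0.34). There were thus 0.922 Id transcripts per E protein transcript in control cells and 1.57 in Eomes cells, 1.70-fold more (log2 ratio 0.77, interval 0.66 to 0.87). The higher Id sum came from *Id2* alone, which supplied 92.8% of the Id sum in control cells and 98.5% in Eomes cells, and *Id3* supplied 7.25% and 1.46%. Without *Id2*, the Id level relative to the E protein sum went the other way, from 0.0668 to 0.0229. The number of *Id2* transcripts per *Id3* transcript was 12.8 in control cells and 67.6 in Eomes cells.

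Within the E protein sum the shares moved little. *Tcf3* accounted for 83.5% in control cells and 85.9% in Eomes cells, *Tcf12* for 15.1% and 13.0%, and *Tcf4* for 1.41% and 1.07%. *Tcf3* transcripts outnumbered those of *Tcf12* by 5.53 to 1 in control cells and 6.62 to 1 in Eomes cells. These are transcript levels, and protein amounts were not part of these tables.

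**Figure D3:**
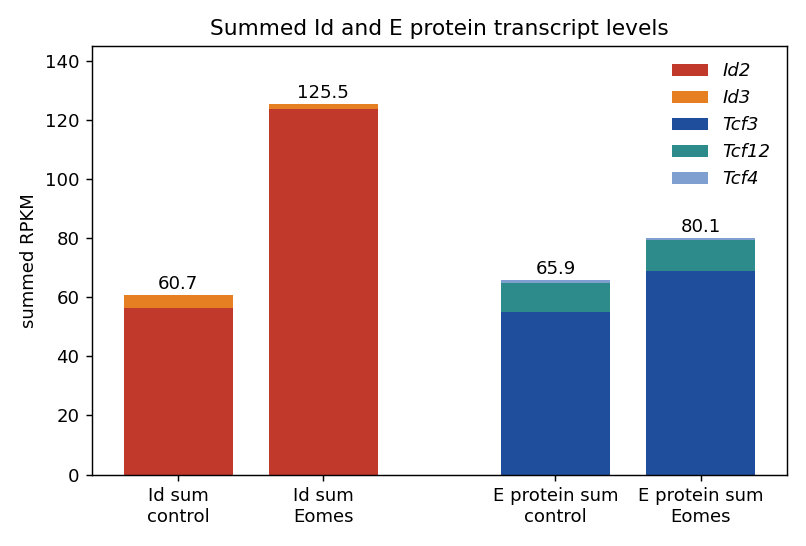
Summed RPKM (linear axis from 0) of the Id genes and of the E protein genes in each library, with segments for single genes. The Id sum is 60.7 in control cells and 125.5 in Eomes cells and consists almost wholly of *Id2*, whereas the E protein sum is 65.9 and 80.1 and consists mainly of *Tcf3*.

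The expressed genes closest to each member in log2 mean RPKM and log2 ratio over the 2 libraries were read from the table. For *Id2* these were *Ctla2a* (log2 ratio 0.77), *Spp1* (1.04) and *Dok2* (0.79), at distances of 0.37 to 0.57, so no expressed gene lay within 0.37 of it. *Id3* had near neighbours, led by *Msc* (distance 0.11, log2 ratio -1.36), then *Ube2l6* (-1.08) and *Phf11a* (-1.17). Near *Tcf3* were *Sfxn1* and *Smap2*, with log2 ratios of 0.34 and 0.33, and *Cdc7*, *Pstk* and *Cenpi* were nearest to *Tcf12*, within a distance of 0.014. *Tcf4* was nearest to *Lancl3*, *Ttll3* and *Slc46a1*, at distances of 0.12 to 0.15.

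The remaining Id genes were scarcely detected. *Id1* had an RPKM of 0.44 in control cells and 0.28 in Eomes cells, about 8 and 5 reads, and *Id4* was listed in neither library. Of 15 genes on a list of these Id genes and of tissue-restricted helix-loop-helix partners of E proteins, 8 were listed and 2 expressed, with a median log2 ratio of -0.97. *Msc*, which encodes the repressor musculin, was more than 1.5-fold lower, from 4.35 to 1.69 (log2 ratio -1.36, interval -1.84 to -0.91). *Twist1* stood exactly at the threshold, at an RPKM of 1.47 and 0.98, and was not counted as past it. It passed the minimum through control cells only. With no minimum the median over the 8 listed genes was -0.62. The HMG-box genes with similar names are separate rows, and of 4 such genes 2 were expressed (median log2 ratio -0.96). *Tcf7* (2.12 and 0.65) was more than 1.5-fold lower and passed the minimum through control cells only. *Lef1* was at 24.6 and 21.2, and *Tcf7l1* and *Tcf7l2* were under an RPKM of 1. For both lists, the share more than 1.5-fold lower over all expressed genes was 5.16%.

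Cofactors through which E proteins act on chromatin were nearly level. Of 14 listed by name 11 were expressed and none was past 1.5-fold, beside 7.60% of all expressed genes. The median log2 ratio of the 11 was 0.07, with a range of -0.13 to 0.31. The most abundant were the deacetylase *Hdac1* (RPKM 164.4 and 150.1), the adaptor *Ldb1* (100.3 and 104.3) and the remodelling ATPase *Smarca4* (61.0 and 61.3). Among 6 genes that act on the turnover of Id or E proteins, with a median of 0.05, *Asb2*, an E3 ligase subunit that targets E2A, was lower at 21.3 and 13.8 (log2 ratio -0.63). Its interval of -0.77 to -0.49 spans 1.5-fold, and centring by GC content put it inside, at -0.52. The share more than 1.5-fold lower over all expressed genes was 5.16%. *Usp1*, the deubiquitinase that stabilizes Id proteins, was at 32.9 and 44.5 (log2 ratio 0.43), and *Fzr1*, an activator of the complex that degrades them, at 60.6 and 63.0. *Stub1* was at 38.5 and 39.9.

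Upstream of the Id genes, 16 receptors, SMAD proteins and transcription factors were examined. Of these 14 were expressed, 0 more than 1.5-fold higher and 2 lower, with a median log2 ratio of 0.16. Over all expressed genes the shares were 2.44% higher and 5.16% lower. The lower ones were *Egr3*, a factor induced by T cell receptor signalling (RPKM 7.52 and 4.19, log2 ratio -0.84), and *Smad3*, which carries TGF-beta signals (1.73 and 0.97, log2 ratio -0.83). *Egr1*, which is known to induce *Id3*, was at 22.2 and 20.6. *Prdm1*, whose product Blimp-1 represses *Id3*, was at 15.0 and 17.0, and the TGF-beta receptor gene *Tgfbr2* at 11.9 and 14.0. *Smad3* passed the minimum through control cells only. Of the 14 genes 9 had log2 ratios above 0, while 50.5% of all expressed genes were under 0.

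Other proteins that read E-boxes were also compared. Of 9 repressors that bind these sites 4 were expressed and 0 were past 1.5-fold (median log2 ratio 0.09), beside 7.60% of all expressed genes. *Bhlhe40* was at an RPKM of 175.6 and 146.8, *Snai3* at 18.7 and 20.2, and *Zeb1* at 3.49 and 4.59. Of 24 genes of other basic helix-loop-helix families 22 were expressed, with 2 higher, 1 lower and a median of -0.07. The shares over all expressed genes were 2.44% higher and 5.16% lower. *Epas1*, which encodes a hypoxia-inducible factor, was higher (1.02 and 4.65, log2 ratio 2.19), as was the circadian gene *Clock* (0.66 and 1.04, log2 ratio 0.66). *Clock* passed the minimum through Eomes cells only. The MYC antagonist *Mxd4* was lower (7.40 and 3.87, log2 ratio -0.94). With GC centring *Clock* had a log2 ratio of 0.45, inside 1.5-fold, and *Mxi1*, another MYC antagonist, moved from -0.56 to -0.62 and past it, which made 1 gene higher and 2 lower. The most abundant of these genes, *Myc*, *Srebf2* and *Usf2*, had log2 ratios of -0.21, -0.07 and -0.24.

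**Figure D4:**
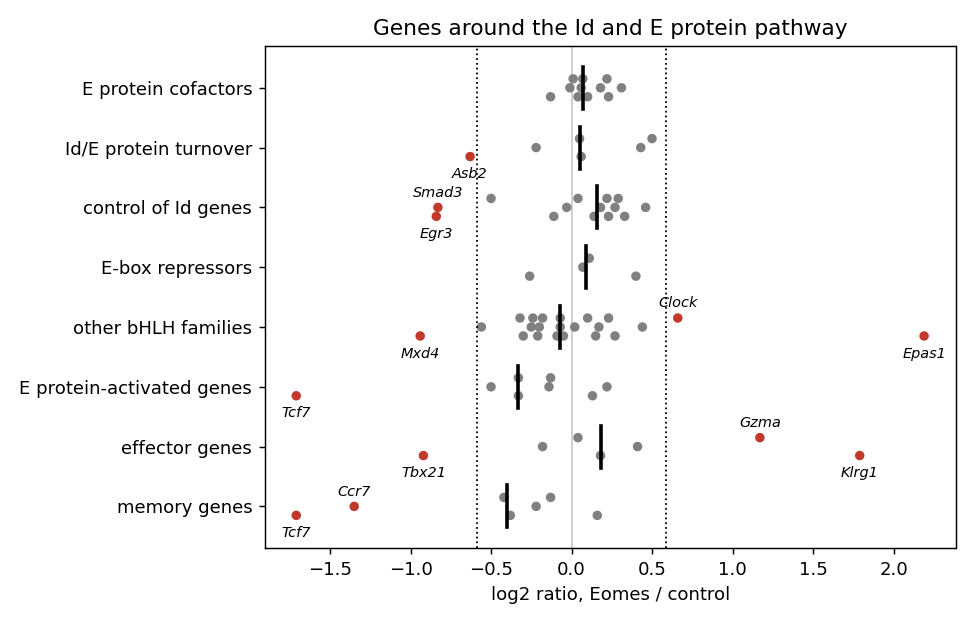
Log2 ratio (Eomes-overexpressing over control) of expressed genes of 8 lists around the pathway, 1 point per gene reported, with red points past 1.5-fold (dotted lines) and a black bar at the median over all expressed genes of each list. The cofactors and E-box repressors lie between the lines, while the lists of genes activated by E proteins and of memory genes have medians of -0.33 and -0.40.

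Genes known to be activated by E proteins in lymphocytes were read as a list of 15. Of these 9 were expressed, 7 had log2 ratios under 0 and 2 were more than 1.5-fold lower. Over all expressed genes 50.5% were under 0 and 5.16% more than 1.5-fold lower. The median was -0.33 for the list against -0.0037 over all expressed genes. *Tcf7*, which encodes the memory-associated factor TCF1, was among the lower ones (log2 ratio -1.71). The genes more than 1.5-fold lower passed the minimum through control cells only. The most abundant, *Cdkn1a*, *Socs1* and *Gfi1*, were at log2 ratios of -0.50, -0.33 and -0.33. *Il7r* and *Foxo1* were at -0.13 and 0.13. The early E protein targets *Rag2* and *Ptcra* were under an RPKM of 1 and *Rag1* was not listed, and *Cd4* was at 0.03 and 0.08.

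Effector and memory genes that accompany *Id2* and *Id3* in CD8+ T cells were placed beside them. Of 10 effector genes 7 were expressed, 2 of them higher and 1 lower, with a median log2 ratio of 0.18. *Klrg1*, a marker of short-lived effector cells, was higher (RPKM 0.45 and 1.56, about 12 and 42 reads) but passed the minimum through Eomes cells only. The granzyme gene *Gzma* was also higher (log2 ratio 1.17), whereas *Tbx21*, which encodes T-bet, was lower (-0.92). *Gzmb*, *Prf1* and *Il2ra* were at 0.04, 0.41 and -0.18. Of 11 memory genes 8 were expressed, 0 higher and 3 lower, with a median of -0.40. Log2 ratios were under 0 for 7 of the 8, beside 50.5% of all expressed genes. *Tcf7* (-1.71) and the lymph node homing receptor gene *Ccr7* (41.9 and 16.4, log2 ratio -1.35) were among the 3 lower ones. The minimum was reached by *Tcf7* in control cells only. *Tcf7* and *Il7r* stand on both this list and that of E protein-activated genes. *Cd27* was at -0.42 and *Bcl2*, which encodes a survival factor, at 0.16. The background shares of 2.44% higher and 5.16% lower also apply to these lists, which were chosen by name and are small.

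The labelled cell type was checked against markers. All 6 CD8+ T cell genes examined were expressed, and their summed RPKM was 996.5 in control cells and 735.8 in Eomes cells. The log2 ratios of all 6 were under 0 (median -0.34), beside 50.5% of all expressed genes. *Cd8a* was more than 1.5-fold lower (181.8 and 99.1), beside 5.16% of all expressed genes, and the other 5 were within 1.5-fold. Fewer cells of a type and less RNA per cell cannot be told apart in such bulk libraries. For B cells, which express *Tcf3* and *Tcf4*, 4 of 6 markers were listed with a sum of 3.43 and 1.89. *Ms4a1* and *Pax5* were listed in neither library, and *Cd79b* was at 2.79 and 1.56. For plasmacytoid dendritic cells 6 of 7 markers were listed with a sum of 123.7 and 141.2, nearly all of it *Irf8* (123.3 and 141.0), which activated T cells also express, while *Siglech* was at 0.05 and 0.02 and *Bcl11a* was not listed.

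Natural killer cells express much *Id2*, although the cultures were started from cells selected for CD8 with magnetic beads and later sorted for hCD2. Of their 3 markers *Klrb1c* was at an RPKM of 0.31 in control cells and 5.74 in Eomes cells, *Tyrobp* at 0.09 and 0.36, and *Ncr1* was not listed, a summed RPKM of 0.40 and 6.10. The part of such cells in the *Id2* level was not tested. Of 6 myeloid markers 3 were listed (sum 2.86 and 4.93) with *Cd68* at 2.68 and 4.59, and *Lyz2*, *Csf1r* and *Adgre1* were listed in neither library. The 3 CD4+ T cell markers summed to 13.9 and 11.8, with *Zbtb7b* at 13.8 and 11.6 and *Foxp3* at 0.09 and 0.07.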

How the data were processed

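Total RNA of 1 control and 1 Eomes-overexpressing culture was sequenced on an Illumina HiSeq instrument. Reads were filtered with SOAPnuke and mapped to mm10 with HISAT and Bowtie2, and RSEM computed expression. The authors deposited FPKM values, called RPKM in their methods and here, with 2 decimals and from 0.01 upward. No scaling between libraries is stated. Symbols turned into dates (20 and 19 rows) were left out.

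Genes missing from a table were given 0.01. Analyses used Python 3.11.15, numpy 2.4.6, pandas 2.3.3, scipy 1.17.1 and matplotlib 3.10.9. A gene was called at more than 1.5-fold with an RPKM of at least 1 in either library. Depth was the read number at which RPKM times length came closest to whole reads, over 232 and 219 low genes with a single RefSeq-matched transcript in GENCODE vM21. Of these, 78.4% and 75.8% lay within 0.2 of a whole number at the chosen depth, so that share is not independent of it. Reads were approximated from the longest RefSeq-matched transcript, and annotated lengths may differ from those the authors used. Intervals (95%) are Clopper-Pearson for log2 ratios and exact Poisson for levels. Of the 50-base stretches of these transcripts, 0.655% for *Id2*, 0.24% for *Tcf12* and 0 for the other members also occur in other genes. The steps were tested on simulated whole reads divided by the same transcript lengths. That test cannot show whether the depth holds for values computed by RSEM.

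Named genes were the members, *Eomes*, list genes past 1.5-fold, up to 3 most abundant genes per list, and the 3 expressed genes nearest to each member. A few others were named after their values were seen, and some genes that these rules select are not reported here and not drawn, though the counts and medians include them. The members and lists were chosen with earlier results of these data known. Alternatives were pseudocounts of 0.1 and 1, TMM, TPM or median scaling, centring in 20 bins of GC content, a 2-fold threshold, a minimum RPKM of 5 or none, and sums without single members.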

Additional observations from a re-analysis of the deposited data

How the results depend on the processing

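Of 165 comparisons with an alternative setting, 134 stayed within the counting interval, within 1.5 times the count or, for list medians, within the typical counting error of the list's genes. Counts were compared without regard to direction. TMM, TPM and median scaling shifted every log2 ratio by only -0.0022, 0.0319 and 0.0037. Comparisons with those settings could thus hardly differ, and the 134 is no measure of robustness. No paired analysis was possible because there is 1 library per condition. *Id2* and *Id3* stayed past 1.5-fold and the E protein genes inside it under each pseudocount, scaling and GC centring. GC centring moved the log2 ratio of *Tcf3* from 0.32 to 0.41. The log2 ratio of the Id sum over the E protein sum was -1.55 without *Id2* and 1.0 without *Tcf3*. With a minimum RPKM of 5, 1 member (*Id2*) was past 1.5-fold, since *Id3* dropped out.

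Over all genes 754 of 9925 were past 1.5-fold, against 244 of 9925 at 2-fold and 402 of 9925 with a pseudocount of 1. With no minimum 3428 of 14732 were past it (1353 higher, 2075 lower), and with a minimum of 5, 308 of 7519. For the lists, the 2-fold threshold left 0 of 6 turnover genes, 0 of 14 controllers of Id genes and 1 of 22 genes of other bHLH families. No minimum gave 6 of 8 helix-loop-helix partners (2 higher, 4 lower) and 6 of 14 E protein-activated genes (2 higher, 4 lower). It also gave 2 of 4 HMG-box genes (1 higher, 1 lower), 1 lower of 13 cofactors and 1 higher of 9 E-box repressors. Genes under an RPKM of 1 enter these counts. With a minimum of 5 no partner was left to count, and 0 of 7 E protein-activated genes and 0 of 1 HMG-box gene were past 1.5-fold. That minimum gave 1 of 5 controllers of Id genes, 1 of 18 genes of other bHLH families and 1 of 5 memory genes. TMM scaling gave 2 partners (*Twist1* crossed), GC centring 0 turnover genes and a pseudocount of 1 gave 1 controller of Id genes. Median log2 ratios with a minimum of 5 were -0.14 for E protein-activated, 0.11 for effector, -0.22 for memory and -0.22 for HMG-box genes, and with no minimum 0.13 for effector and -0.06 for HMG-box genes. Depth limits *Id3* most, at about 45 reads in Eomes-overexpressing cells.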
